A study of Mus musculus with 6 samples.

Results

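Moxd1, Slc14a1, Ptpn5 and Kif1a, 4 genes best known from brain, kidney or neural crest, were chosen from the largest rises in dermal fibroblasts of K14-PTHrP (KrP) mice, out of 22180 named genes measured. Since the KrP against wild-type (WT) difference itself selected them, their differences are given as a description, with no test. Fibroblasts were sorted from ventral skin of female C57BL/6 mice aged 8 to 12 weeks, in 3 KrP samples (genotype K14 Pthrp, with nipple-like skin) and 3 samples of WT littermates, whose skin was in telogen, the resting phase of the hair cycle. The KrP transgene places PTHrP, the parathyroid hormone-related protein, under the keratin 14 promoter, which is active in basal keratinocytes, so the sorted fibroblasts are neighbours of the cells that the transgene targets. All samples come from 1 transgenic line. Pooled cells were sorted by CD140, a fibroblast marker, against CD49f, CD117, CD31 and CD45, and the labels do not say whether the 3 mice they name served 1 sample or a whole group. The spread between samples may therefore be technical. The descriptions of KrP 2 and KrP 3 name other keratins than K14, while their source names and genotypes name K14, which was used.

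The 4 proteins have different jobs. Moxd1 belongs to the copper-dependent monooxygenases, the family of dopamine beta-hydroxylase, and sits in the endoplasmic reticulum, where its natural substrate is not settled. Slc14a1 is the urea transporter UT-B, a channel-like protein of red cells, where it carries the Kidd blood group, and of the vessels of the kidney medulla, where it helps to concentrate urine. Ptpn5, also called STEP, is a tyrosine phosphatase of striatal and other neurons that takes phosphate off MAP kinases, the kinase Fyn and glutamate receptor subunits. Kif1a is a kinesin-3 motor that carries synaptic vesicle precursors and dense-core vesicles along axons.

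The start regions of Moxd1, Ptpn5 and Kif1a, which lie on different chromosomes, are shown as background. Their shared rise is what selected these genes, so it gives no ground to look for a shared motif. The reference set held no start region for Slc14a1. Each region shown is the 250 bases upstream of a RefSeq start in the mouse assembly GRCm38.p6, and capitals mark matches to any of the motifs listed after them. Outer and inner order only the starts in the reference set. The outer Ptpn5 region lies inside the span of its gene, which reaches 47134026. The outer Kif1a region overlaps the span of its gene, which reaches 93102039.

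Moxd1, chr10:24223267-24223516, plus strand: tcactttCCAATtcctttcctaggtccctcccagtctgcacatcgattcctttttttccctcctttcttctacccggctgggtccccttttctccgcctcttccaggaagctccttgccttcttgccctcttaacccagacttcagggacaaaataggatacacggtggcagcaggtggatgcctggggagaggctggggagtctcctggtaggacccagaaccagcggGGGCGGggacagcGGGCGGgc
Ptpn5, outer start, chr7:47133685-47133934, minus strand: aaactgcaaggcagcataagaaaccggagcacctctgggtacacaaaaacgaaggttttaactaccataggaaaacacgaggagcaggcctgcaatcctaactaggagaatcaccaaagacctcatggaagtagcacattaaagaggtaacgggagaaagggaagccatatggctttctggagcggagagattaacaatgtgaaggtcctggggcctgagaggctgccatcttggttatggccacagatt
Ptpn5, inner start, chr7:47132599-47132848, minus strand: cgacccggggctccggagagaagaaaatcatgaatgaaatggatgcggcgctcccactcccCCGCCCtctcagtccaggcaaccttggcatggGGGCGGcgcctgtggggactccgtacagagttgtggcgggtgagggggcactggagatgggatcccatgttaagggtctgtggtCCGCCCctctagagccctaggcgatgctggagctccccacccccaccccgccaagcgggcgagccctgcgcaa
Kif1a, outer start, chr1:93101875-93102124, minus strand: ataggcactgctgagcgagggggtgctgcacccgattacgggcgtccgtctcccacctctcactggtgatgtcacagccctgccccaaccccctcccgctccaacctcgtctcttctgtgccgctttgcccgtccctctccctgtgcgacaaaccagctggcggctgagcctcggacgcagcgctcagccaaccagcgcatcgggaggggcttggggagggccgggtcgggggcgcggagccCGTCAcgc

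The motifs searched on both strands were the cAMP response element TGACGTCA with its core TGACG, the AP-1 site TGANTCA, the GC box GGGCGG, the TATA box TATAAA, the CCAAT box and the oestrogen response core GGTCA. The core TGACG lies within TGACGTCA, so a full element also counts as a core. Moxd1 had 2 GC boxes and 1 CCAAT box, the inner Ptpn5 start had 3 GC boxes and the outer Ptpn5 start had 0 matches. The outer Kif1a start had 1 TGACG core, and an inner Kif1a start, not printed, had 3 GGTCA cores. No motif of the 7 occurred in the start regions of all 3 genes. GC boxes occur in 32.7% of the 32851 mouse start regions of this length, CCAAT in 33.8%, TGACG in 17.8% and GGTCA in 35.2%. The remaining motifs were less common, at 1.5% for TGACGTCA, 6.7% for TGANTCA and 12.4% for TATAAA. The G and C share was 58.4% for Moxd1, 48.0% and 66.0% for the outer and inner Ptpn5 starts, 69.2% for the outer Kif1a start, and 52.4% at the median of all start regions. These matches are descriptions of letters and were not tested as binding sites.

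All 4 genes were higher in every KrP sample than in any WT sample. Values are log2 expression values of 1 probe set a gene, so that a difference of 1 is a doubling, and levels of different genes cannot be compared because each probe set has its own brightness. In bulk samples, more cells that express a gene and more RNA of that gene per cell cannot be told apart. Groups that do not overlap, with KrP higher, were found for 2532 of the 22180 genes, or 11.4%, and the members were chosen on this contrast, so nothing is read from their own count.

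Moxd1 had log2 values of 6.36, 7.22 and 7.58 in WT 1, 2 and 3 and of 10.28, 9.18 and 10.68 in KrP 1, 2 and 3. WT 1 was the low sample of its group and KrP 2 of its own, and the lowest KrP value stood 1.60 above the highest WT value. The means were 7.05 ± 0.63 and 10.05 ± 0.78 (SD, n = 3 each), a 7.96-fold rise and a log2 fold change of 2.99 ± 0.42 (SE). Moxd1 varied most within the WT group, over a range of 1.22 on the log2 scale.

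Slc14a1 had log2 values of 7.62, 7.75 and 7.40 in WT and of 10.53, 9.74 and 10.39 in KrP samples. The WT samples lay within 0.35 of each other, KrP 2 was again the lowest KrP sample, and the gap between the groups, 1.99, was the widest of the 4 genes. The urea transporter rose 6.19-fold, from 7.59 ± 0.18 to 10.22 ± 0.42 (SD, n = 3 each), with a log2 fold change of 2.63 ± 0.21 (SE).

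Ptpn5 was the steadiest of the 4 genes, with log2 values of 7.56, 7.73 and 7.43 in WT and of 10.03, 9.68 and 9.59 in KrP samples. Both groups were tight, with ranges of 0.30 and 0.44, and KrP 3 rather than KrP 2 was the lowest KrP sample. The phosphatase rose 4.57-fold, from 7.57 ± 0.15 to 9.77 ± 0.23 (SD, n = 3 each), with a log2 fold change of 2.19 ± 0.16 (SE).

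Kif1a had log2 values of 8.05, 7.61 and 7.81 in WT and of 10.83, 8.95 and 10.25 in KrP samples. Its WT samples were close together while its KrP samples spread over 1.88, so that the gap between the groups, 0.90, was the narrowest of the 4. The motor rose 4.55-fold, from 7.82 ± 0.22 to 10.01 ± 0.96 (SD, n = 3 each), with a log2 fold change of 2.19 ± 0.41 (SE), a size close to that of Ptpn5 with a larger error.

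**Figure D1:**
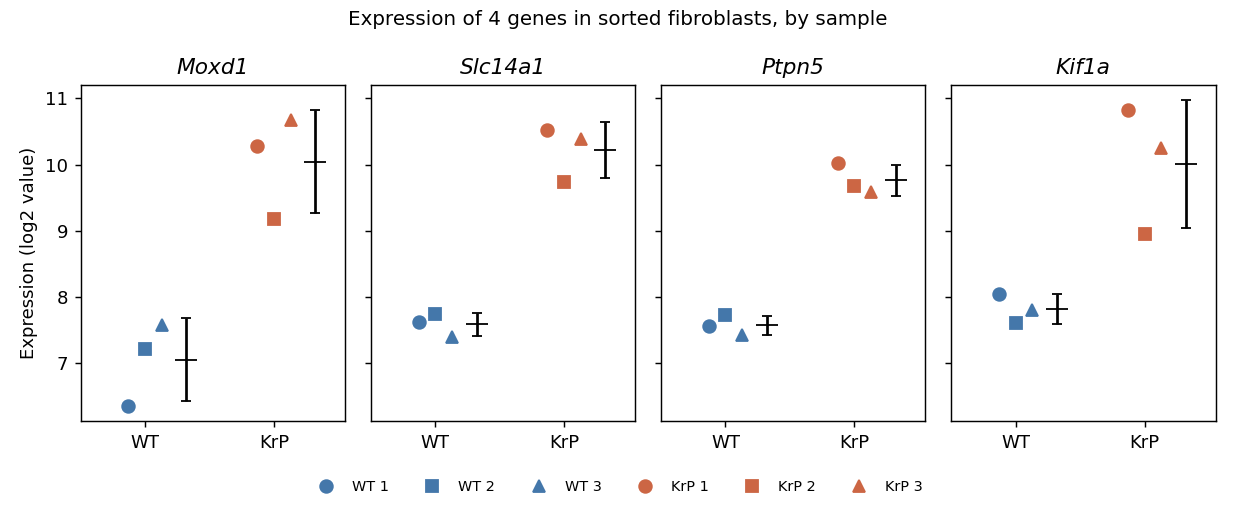
Log2 expression values of Moxd1, Slc14a1, Ptpn5 and Kif1a in the 3 WT (blue) and 3 KrP (orange) samples, with symbols for the replicate number and the mean ± SD in black beside each group. All 4 genes have separate groups, and KrP 2 (square) is the lowest KrP sample for Moxd1, Slc14a1 and Kif1a; heights should not be compared between genes.

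The 4 genes did not share the shortfall of KrP 2 equally. On the log2 scale, the rise over the WT mean in KrP 2 was 41.5% of the mean rise in KrP 1 and KrP 3 for Kif1a, 62.1% for Moxd1, 74.9% for Slc14a1 and 94.2% for Ptpn5. The median of the 255 genes that rose by limma was 82.3%. KrP 2 was the lowest KrP sample for 153 of those 255 genes and for 6980 of all 22180 genes. Over all probe sets KrP 2 correlated by 0.989 with each WT array and by 0.986 to 0.992 with the other KrP arrays, so this array stood between the groups. Without it the log2 fold changes were 2.72 for Kif1a, 3.43 for Moxd1, 2.87 for Slc14a1 and 2.24 for Ptpn5. Leaving out KrP 1 instead gave the lowest value for Kif1a, 1.78. Compared within replicate numbers, KrP minus WT was 3.92, 1.96 and 3.10 for Moxd1, 2.91, 1.99 and 2.99 for Slc14a1, 2.47, 1.95 and 2.16 for Ptpn5, and 2.78, 1.34 and 2.44 for Kif1a. Replicate 2 gave the smallest of the 3 differences for each gene.

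Across all genes, limma called 483 of 22180 at a Benjamini-Hochberg adjusted p under 0.05, which is 2.18%, with 255 higher (1.15%) and 228 lower (1.03%) in KrP samples. The 4 members were among the 255. They were chosen for large rises on this same contrast, so their calls carry no further weight. The count ranged from 85 without KrP 3, 101 without WT 3, 230 without WT 1, 256 without WT 2 and 321 without KrP 1 to 1116 without KrP 2, and was 1851 (8.35%) with the replicate number as a block. By log2 fold change among the called rises, Moxd1 and Slc14a1 ranked 3 and 4, between the collagen prolyl hydroxylase subunit P4ha3 (3.02) and the vasoactive peptide Uts2 (2.47). Ptpn5 and Kif1a ranked 9 and 10, between the chemokine Cxcl14 (2.27) and the phosphodiesterase Pde1a (2.08). Among all 22180 genes, called or not, the ranks were 4 for Moxd1, 6 for Slc14a1, 12 for Ptpn5 and 13 for Kif1a. Over fits that left out 1 sample each, this rank among all genes ran from 2 to 5 for Moxd1 and from 5 to 7 for Slc14a1. It ran from 9 to 24 for Ptpn5 and from 7 to 27 for Kif1a.

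The closest relatives of the 4 genes showed no change of similar size, and limma called none of the 13 measured (1, Kif1c, had an unadjusted p under 0.05). For Moxd1 these were dopamine beta-hydroxylase Dbh, which makes noradrenaline (log2 fold change 0.19 ± 0.10 SE, adjusted p = 0.387), Moxd2 (-0.15 ± 0.15, adjusted p = 0.694) and Pam, which amidates peptide hormones (-0.16 ± 0.09, adjusted p = 0.458). Dbh had values of 5.78, 5.87 and 5.93 in WT and of 6.04, 6.10 and 6.02 in KrP samples. These lie under 6.28, a guide to background set so that 95% of 1105 olfactory receptor genes, which serve smell, have a mean below it. Moxd2 was also under that level in all 6 samples, while Pam ran from 11.07 to 11.36. Slc14a2, the UT-A urea transporter of the kidney collecting duct and the chromosomal neighbour of Slc14a1, had values of 6.23, 6.40 and 6.19 in WT and 6.11, 6.29 and 6.38 in KrP samples, close to background in both (log2 fold change -0.01 ± 0.12, adjusted p = 0.974).

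Ptprr and Ptpn7 are the other tyrosine phosphatases with a kinase interaction motif for MAP kinases. Ptprr had a WT mean of 5.86 and a KrP mean of 5.56 (log2 fold change -0.30 ± 0.16 SE, adjusted p = 0.408 by limma), and Ptpn7 had 6.11 and 5.93 (-0.17 ± 0.12, adjusted p = 0.549), all under the background guide. Kif1b and Kif1c, the nearest relatives of Kif1a, serve many cell types. Kif1b had 9.46, 8.95 and 9.30 in WT and 9.77, 8.86 and 9.45 in KrP samples, with overlapping groups (log2 fold change 0.12 ± 0.24, adjusted p = 0.863). Kif1c had 8.58, 8.36 and 8.56 in WT and 9.20, 8.93 and 8.99 in KrP samples, groups that did not overlap (0.54 ± 0.13, adjusted p = 0.0881 unblocked and 0.0259 with the replicate block). The remaining kinesin-3 genes had log2 fold changes of 0.38 (Kif13a), -0.38 (Kif13b), -0.11 (Kif14), -0.10 (Kif16b) and 0.11 (Stard9).

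**Figure D2:**
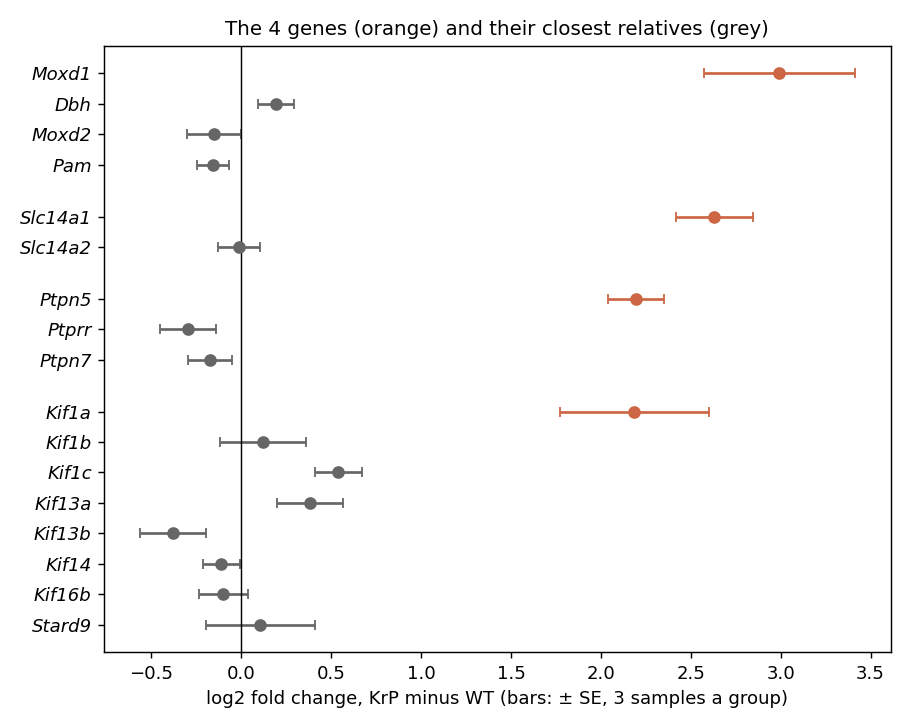
Log2 fold change (KrP minus WT, ± SE, 3 samples a group) of the 4 genes in orange and of their closest relatives in grey. The 4 genes lie between 2.19 and 2.99, and the relatives between -0.38 and 0.54.

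The pathways around each gene were then counted, beside the background of 1.15% of all genes higher and 1.03% lower by limma and a median log2 fold change of 0.007. With the block these shares were 5.33% and 3.02%. At an unadjusted p under 0.05 they were 9.44% higher and 6.56% lower, or 16% of all genes, and the list counts at that level are to be read against these. Around Moxd1, 0 of 17 measured genes of copper monooxygenases and catecholamine synthesis passed (1 higher and 2 lower at an unadjusted p under 0.05; median -0.10). Gch1, which makes the cofactor of tyrosine hydroxylase, had a difference of -0.95 on the log2 scale (adjusted p = 0.0564, and 0.00436 blocked); the blocked fit called 0 higher and 1 lower. Th, tyrosine hydroxylase itself, lay near background, at 6.53 ± 0.10 in WT and 6.43 ± 0.15 in KrP (SD, n = 3 each). Of 24 genes for copper handling and copper enzymes, 5 were higher and 1 lower at an unadjusted p under 0.05 (median 0.16). The blocked fit called 5 and 1. By limma 1 rose and 1 fell. Heph, a copper ferroxidase that helps iron leave cells, rose from 7.73 ± 0.36 to 9.37 ± 0.29 (SD, n = 3 each; log2 fold change 1.64, adjusted p = 0.0107). The lysyl oxidase Loxl4, which crosslinks collagen, fell by 0.65 on the log2 scale (adjusted p = 0.0374). The call of Heph did not survive the loss of WT 3 (adjusted p = 0.0696) or KrP 3 (0.0801), and that of Loxl4 without WT 1 (0.105), WT 2 (0.115), WT 3 (0.101), KrP 1 (0.0736) or KrP 3 (0.191).

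Around Slc14a1, 0 of 20 genes for urea transport, the urea cycle and polyamines passed limma (2 higher and 3 lower at an unadjusted p under 0.05; median -0.09). With the block 2 fell, namely the cationic amino acid transporters Slc7a1 (-0.70 on the log2 scale; adjusted p = 0.421 unblocked and 0.0297 blocked) and Slc7a2 (-0.97; 0.118 and 0.0309), which bring in arginine. Of 20 aquaporins and osmotic stress genes, 1 rose and 0 fell (2 and 1 blocked; median 0.00). This was Aqp5, a water channel of glands, with values of 7.54 ± 0.05 in WT and 8.77 ± 0.14 in KrP (SD, n = 3 each; log2 fold change 1.23, adjusted p = 0.00391). It passed under all 15 alternatives run. Aqp1, the water channel that shares red cells and kidney vessels with UT-B, had 10.20 ± 0.36 and 10.55 ± 0.33 (adjusted p = 0.491).

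Around Ptpn5, tyrosine phosphatases changed in both directions. Of 36 other classical ones, 6 were higher and 9 lower at an unadjusted p under 0.05 (median log2 fold change 0.00). The blocked fit called 5 higher and 5 lower, and limma without KrP 2 called 3 and 3. Among the blocked falls were the receptor types Ptprk (-0.74, blocked adjusted p = 0.019), Ptprm (-0.45, 0.0331) and Ptprn (-0.52, 0.0381). By limma over all 6 samples, 3 rose, all of receptor type, and 1 fell. Ptprs rose from 10.02 ± 0.20 to 11.49 ± 0.05 (SD, n = 3 each; log2 fold change 1.47, adjusted p = 0.00228), Ptprj by 1.26 (adjusted p = 0.0076) and Ptprf by 1.09 (adjusted p = 0.0165). Ptprs and Ptprf are of the LAR family, which binds matrix proteoglycans and other cell surface partners, and Ptprj acts on growth factor receptors. Ptpn22, best known from lymphocytes, fell by 1.18 on the log2 scale (adjusted p = 0.0188) to a KrP mean of 5.94, under the background guide. Ptprs passed under all 15 alternatives, while the calls of Ptprj (0.0542 and 0.0671), Ptprf (0.0996 and 0.12) and Ptpn22 (0.0821 and 0.0829) ended without WT 3 and without KrP 3 respectively, and that of Ptpn22 also without KrP 1 (0.0515).

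The kinase side of the STEP pathway gave few calls by limma over all 6 samples. Of 25 MAP kinases, their kinases and dual-specificity phosphatases, 0 passed limma (3 higher and 1 lower at an unadjusted p under 0.05; median 0.01), and the blocked fit called 2 higher, Mapk11 (0.59 on the log2 scale, blocked adjusted p = 0.0188) and Map2k2 (0.42, 0.035). Among 22 response and feedback genes of MAP kinase signalling, 6 were higher and 6 lower at an unadjusted p under 0.05 (median -0.08). The blocked fit called 3 and 3, as did limma without KrP 2. Over all genes, 9.44% were higher and 6.56% lower unadjusted, and 5.33% and 3.02% blocked. The list shares were larger than these, which was not tested. Limma over all 6 samples called 0 higher and 1 lower, cyclin D1 (Ccnd1), at a log2 fold change of -2.60 (adjusted p = 0.016). Fos and Fosb, immediate early genes that tissue dissociation also induces, had log2 fold changes of 1.35 and 1.22 (adjusted p = 0.0746 and 0.10 unblocked, 0.00406 and 0.00158 blocked). Of 18 STEP substrates and regulators, 5 were higher and 2 lower at an unadjusted p under 0.05 (median 0.07). The blocked fit called 3 higher and 0 lower. By limma 1 rose, the glutamate receptor subunit Gria1, by 0.98 (adjusted p = 0.026), from a WT mean of 6.10 under the background guide. The call of Ccnd1 ended without WT 1 (0.0587), WT 3 (0.0863) or KrP 3 (0.0955), and that of Gria1 without WT 1 (0.0838), WT 2 (0.0803), WT 3 (0.0629), KrP 1 (0.0639) or KrP 3 (0.129).

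Around Kif1a, 1 of 38 other kinesins and light chains rose and 0 fell (2 and 1 blocked; median 0.03). This was Kif5c, a kinesin-1 heavy chain best known from neurons, at 7.61 ± 0.23 in WT and 8.81 ± 0.17 in KrP (SD, n = 3 each; log2 fold change 1.21, adjusted p = 0.0103). That call was lost when WT 3 (adjusted p = 0.0635) or KrP 3 (0.0544) was left out. On the cargo side, of 31 dense-core and synaptic vesicle genes, 0 rose and 1 fell (0 and 2 blocked; median 0.00), namely carboxypeptidase E (Cpe), which trims peptide hormones, at a log2 fold change of -1.38 (adjusted p = 0.00431). That call held under all 15 alternatives, and 16 of the 31 genes had means at or under the background guide.

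Markers of the tissues where the 4 genes are best known gave few calls by limma at an adjusted p under 0.05. Of 19 neuron markers, 0 rose and 1 fell by limma (0 higher and 3 lower at an unadjusted p under 0.05; median 0.08), and their mean log2 level ran from 6.40 to 6.52 in WT and from 6.42 to 6.47 in KrP samples. Over the 6 samples 11 of the 19 had a mean above the background guide and 8 did not, the latter including Snap25, Nefl, Nefm, Elavl4 and Dcx, and Stmn2 fell by 0.88 on the log2 scale (adjusted p = 0.0188). Its call ended without WT 1 (0.0686), WT 2 (0.0547), WT 3 (0.0886) or KrP 3 (0.129). Of 16 Schwann cell and glial markers 0 passed (unadjusted p under 0.05 in 3 higher and 1 lower; blocked, 1 higher; mean level 6.74 to 6.97 in WT and 6.80 to 6.95 in KrP samples). Sox10, the defining factor of glia and melanocytes, had 6.39, 6.75 and 6.15 in WT and 6.26, 6.75 and 6.75 in KrP samples. Of 18 kidney epithelial markers 0 passed (0 higher and 1 lower at an unadjusted p under 0.05; mean level 6.19 to 6.39 and 6.18 to 6.27). Of 9 red cell markers 0 passed (0 higher and 2 lower at an unadjusted p under 0.05; mean level 6.58 to 6.80 and 6.45 to 6.74), although haemoglobin genes were not measured as single genes. Of 13 melanocyte markers 0 passed (unadjusted p under 0.05 in 1 higher and 2 lower; blocked, 1 lower), and Dct, Tyr and Tyrp1 had group means between 4.27 and 5.92, under the background guide.

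Of 18 neural crest factors, 6 were higher and 3 lower at an unadjusted p under 0.05 (median log2 fold change 0.03). The blocked fit called 3 higher and 3 lower, and limma without KrP 2 called 3 and 1. Over all genes, 9.44% were higher and 6.56% lower unadjusted, and 5.33% and 3.02% blocked. The list shares were larger than these, which was not tested. By limma over all 6 samples, 1 rose and 0 fell. The riser was Snai1, a factor of mesenchymal transition that fibroblasts also use, at 1.22 on the log2 scale (adjusted p = 0.0404), which lost its call without WT 1 (0.0545), WT 2 (0.0848), WT 3 (0.154), KrP 1 (0.0919) or KrP 3 (0.209).

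**Figure D3:**
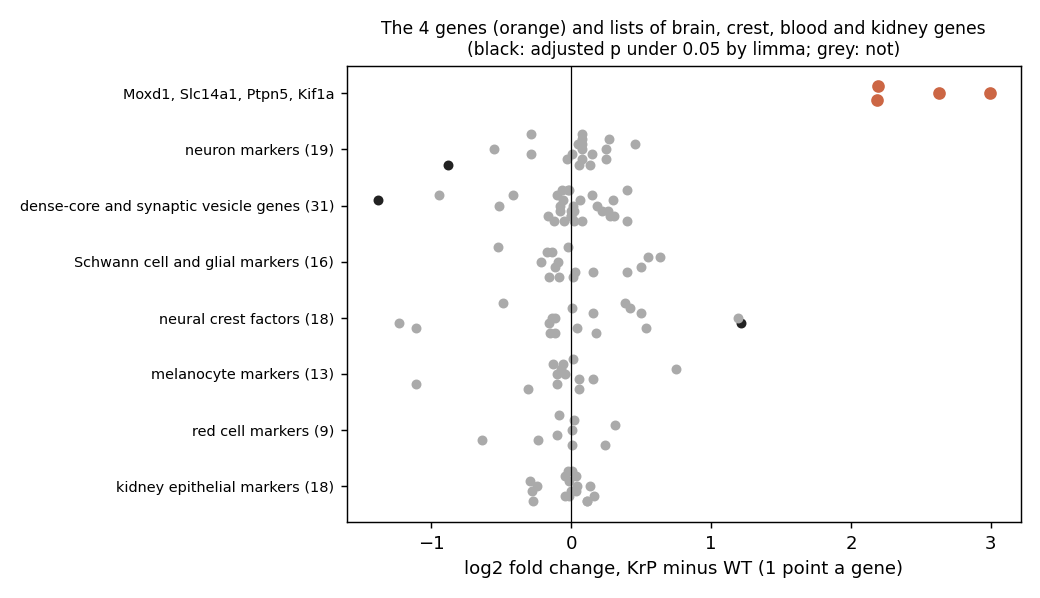
Log2 fold change (KrP minus WT), 1 point a gene, of the 4 genes in orange and of lists for neurons, vesicles, glia, neural crest, melanocytes, red cells and kidney, with the number measured in brackets; points are spread vertically only to separate them. The 4 genes lie above 2, and the genes of the lists between -1.38 and 1.22.

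The sorted cells carried fibroblast markers in both groups. Of 14 such markers 0 passed (unadjusted p under 0.05 in 7 higher and 0 lower; blocked, 5 higher). Over all genes, 9.44% were higher at that unadjusted p and 5.33% blocked. The median log2 fold change of the fibroblast markers was 0.45, against 0.007 over all genes, so they leaned higher in KrP samples. Their mean log2 level was 11.57 to 11.96 in WT and 11.89 to 12.37 in KrP samples. The sort gene Pdgfra had a log2 value of 13.23 ± 0.10 and 13.47 ± 0.06 (SD, n = 3 each), whereas Ptprc, the gene of CD45, had 4.85 and 4.65. Markers of other skin cells were counted beside the shares over all genes, 2.18% called by limma and 8.35% blocked. Of these lists the endothelial one gave the most calls, 3 of 13 by limma and 4 of 13 blocked. That is a larger share than over all genes in both fits. Among 14 keratinocyte markers 0 passed (0 higher and 1 lower at an unadjusted p under 0.05). Their median log2 fold change was -0.31, with a mean level of 6.41 to 7.30 in WT and 6.18 to 6.45 in KrP samples. Krt17 had the largest difference of these, -1.27 on the log2 scale (adjusted p = 0.447), with 9.06 in WT 2 and at most 6.10 in each of the other 5 samples. Of 13 endothelial markers 1 rose (Flt1, log2 fold change 1.07) and 2 fell (Cldn5, -0.95, and Tek, -0.76); blocked, 1 and 3, with Kdr (-1.41; adjusted p = 0.0658 unblocked and 0.00158 blocked) added. Of 12 pericyte and smooth muscle markers Cspg4 fell (-1.10), and the block added a rise of Acta2 (1.31; 0.154 and 0.0138). Of 13 leukocyte markers Csf1r rose (0.73), and the block added a fall of Cd3g (-0.46; 0.114 and 0.042). Of 10 adipocyte markers Lpl fell (-1.79) and of 12 skeletal muscle markers 0 passed (1 higher at an unadjusted p under 0.05). The calls of all but Lpl ended without KrP 3 (adjusted p from 0.061 for Tek to 0.196 for Csf1r by limma) and without WT 3 (0.0629 for Cldn5 to 0.165 for Csf1r). Those of Flt1, Tek and Cspg4 also ended without WT 1 or WT 2 (0.0704 to 0.103), that of Csf1r without WT 1 (0.0957), KrP 1 (0.0772) or with quantile normalisation (0.0604), and that of Tek without KrP 1 (0.10) or KrP 2 (0.0524). The part of these cells in the rise of the 4 genes was not tested.

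The genes with the most alike values overlapped in part between Moxd1, Slc14a1 and Ptpn5. Likeness was the root mean square difference over the 6 samples after centring each gene on its own mean, so that 0 is an identical pattern. Values were not scaled, so the size of the rise in KrP samples weighs on this measure. The members were chosen for large rises, so other large risers come out as most alike and nothing is read from the overlap. Likeness was taken over 18674 genes, after 3506 with clone-type, predicted-gene, small RNA or antigen receptor segment names were left out. Moxd1 was most like P4ha3 (0.360) and Htra4 (0.380), a secreted protease, then Slc14a1 (0.517), the Wnt inhibitor Sfrp1 (0.620) and Cxcl14 (0.625). Htra4 shared the low WT 1 of Moxd1, with 7.32 there against 8.42 and 8.10 in the other WT samples. Slc14a1 was most like Uts2 (0.266), Ptpn5 (0.307), Sfrp1 (0.329), P4ha3 (0.344) and Pde1a (0.348). Ptpn5 had the closest match of the 4, the acute-phase protein Saa3 (0.163), followed by the endothelial-type factor Sox18 (0.246), the protease inhibitor Pi15 (0.249), Pde1a (0.257) and Cxcl14 (0.260).

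The 5 genes most like Kif1a were not among the 5 most like any of the other 3. They were Chn1, a Rac-regulating protein best known from neurons (0.213), the Met ligand Hgf (0.220), Tmem86a, an enzyme of plasmalogen breakdown (0.247), the collagen receptor subunit Itga1 (0.247) and Fdft1, which makes squalene for cholesterol synthesis (0.281). Chn1 had log2 values of 6.92, 6.28 and 6.56 in WT and of 9.44, 7.31 and 8.51 in KrP samples. In these 5 genes, as in Kif1a, WT 2 was the lowest WT sample, KrP 1 was the highest and KrP 2 the lowest KrP sample. Among the 4 genes themselves, Slc14a1 and Ptpn5 were the most alike (0.307), and Moxd1 and Ptpn5 the least (0.723). These patterns were chosen for their likeness and are descriptions without a test.

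**Figure D4:**
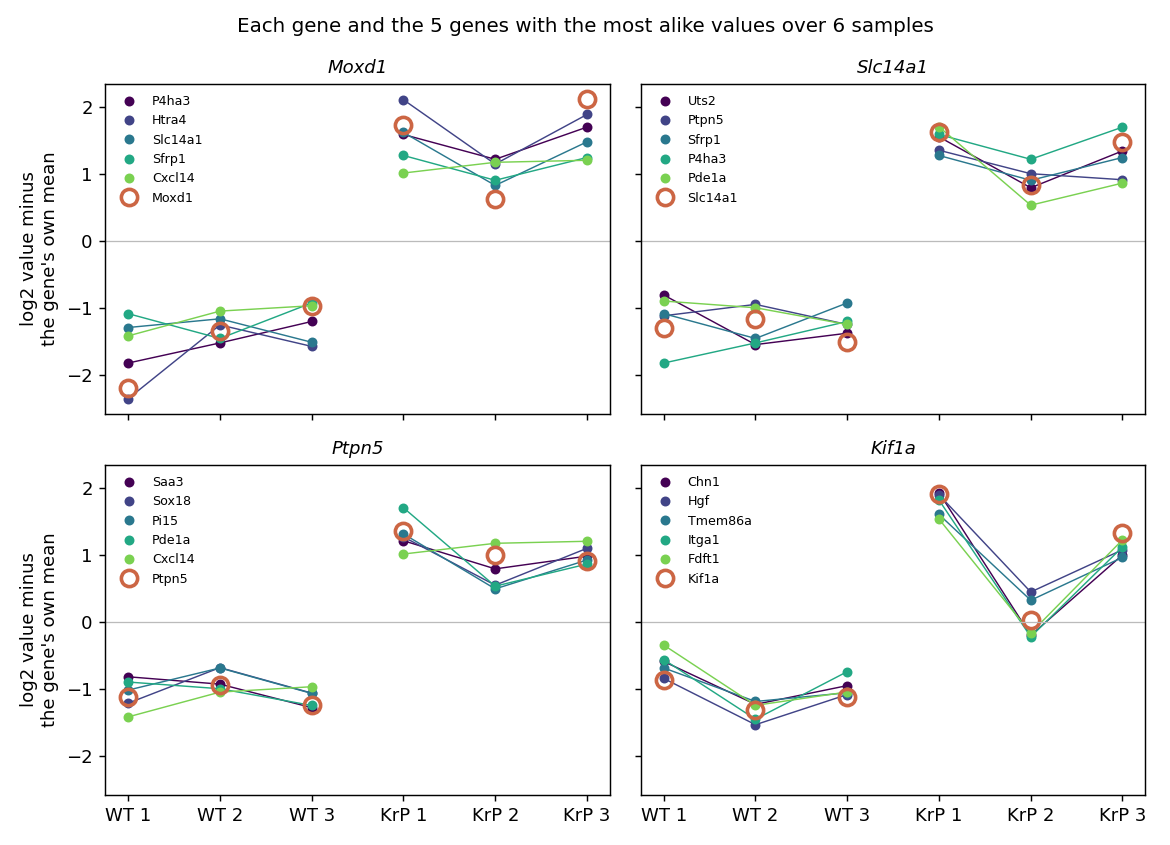
Log2 values in each of the 6 samples, minus the gene's own mean, for Moxd1, Slc14a1, Ptpn5 and Kif1a (open orange circles) and the 5 genes most like each (coloured points; lines only join the samples of 1 group for 1 gene). The Kif1a panel shows KrP 2 well below KrP 1 and KrP 3 for all 6 genes, whereas in the Ptpn5 panel the KrP samples of Ptpn5 lie close together.

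The measured protein-coding neighbours on the same chromosome, 5 on each side, were compared next, a comparison added after the values were seen. Over all genes, 1.15% were called higher by limma and 5.33% blocked. For Moxd1, 0 of 10 neighbours passed limma and their log2 fold changes ran from -0.30 to 0.32, with a median of 0.05. The nearest were Stx7 (0.09) and the matrix signalling protein Ccn2 (-0.30 ± 0.90 SE). For Slc14a1, 0 of 10 passed, with a range of -0.32 to 0.66 and a median of 0.04. The blocked fit called 2 of these 10 higher, Haus1 (0.61; adjusted p = 0.111 unblocked and 0.0347 blocked) and Setbp1 (0.66; 0.14 and 0.0309). Beside Ptpn5, 2 of 10 rose and 0 fell (3 and 0 blocked). The adjacent gene Tmem86a, also among those most like Kif1a, rose from 8.40, 7.90 and 8.03 in WT to 10.69, 9.41 and 10.05 in KrP samples (log2 fold change 1.94 ± 0.30 SE, adjusted p = 0.0191). The third gene out, Uevld, rose by 0.79 on the log2 scale (adjusted p = 0.0414), and Spty2d1 between them was at 0.56 (adjusted p = 0.0563 unblocked and 0.0188 blocked). On the other side of Ptpn5 the 5 sensory receptor genes of the Mrgpr family had log2 fold changes from -0.35 to 0.16. Saa3, the gene most like Ptpn5, lay on the same chromosome with 10 measured protein-coding genes between them. How often alike genes share a chromosome was not tested. Beside Kif1a, 1 of 10 rose, the matrix protein gene Sned1 at the fourth place (log2 fold change 1.80 ± 0.27 SE, adjusted p = 0.017), with 3 genes between them at 0.07, 0.39 and 0.04. The call of Tmem86a ended without WT 2 (adjusted p = 0.0707), WT 3 (0.104) or KrP 3 (0.116), that of Sned1 without WT 1 (0.065), WT 2 (0.0617), WT 3 (0.0535) or KrP 3 (0.114), and that of Uevld without WT 2 (0.114), WT 3 (0.196), KrP 1 (0.0935) or KrP 3 (0.17) and at 0.05 with median centring.

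**Figure D5:**
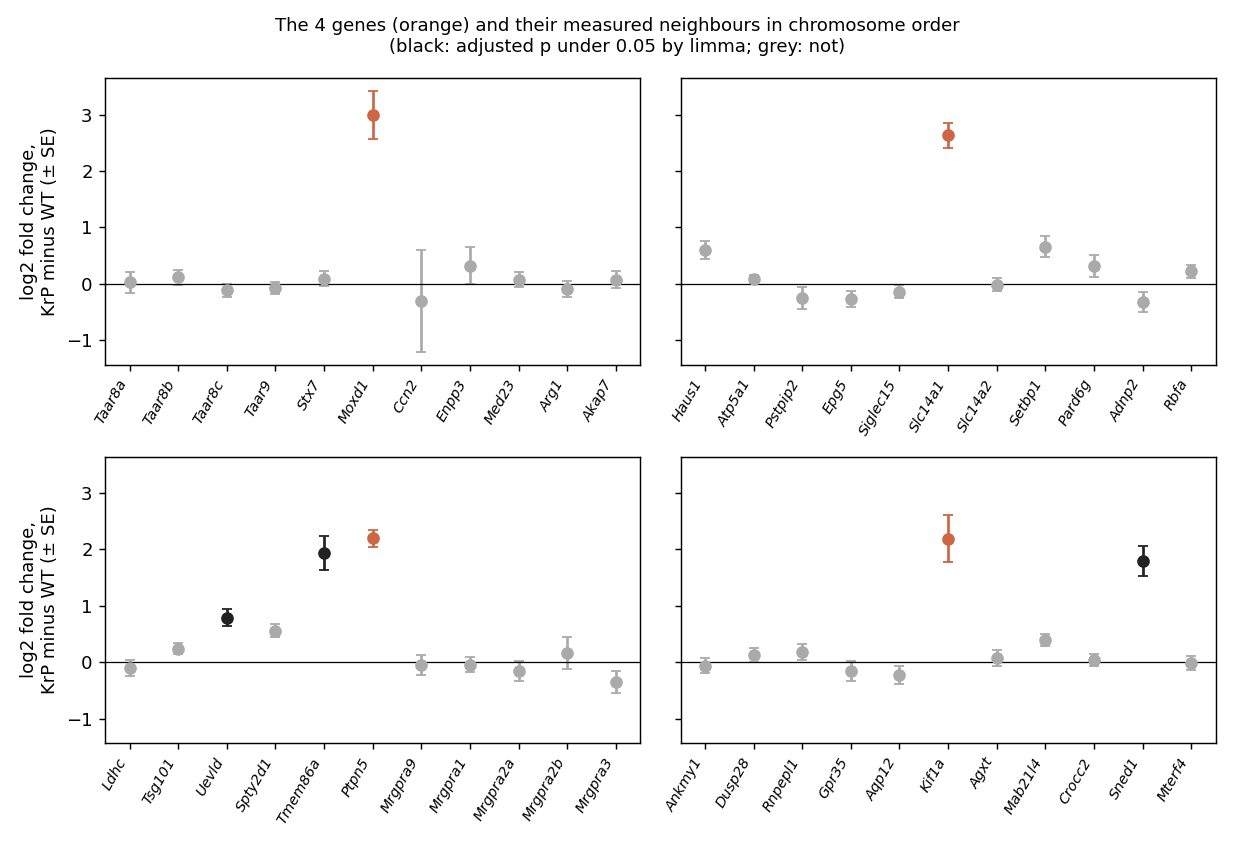
Log2 fold change (KrP minus WT, ± SE, 3 samples a group) of the 4 genes in orange and of up to 5 measured protein-coding genes on each side in chromosome order, not to scale in distance; black points passed limma at an adjusted p under 0.05 and grey points did not. Tmem86a and Uevld beside Ptpn5 and Sned1 near Kif1a are the 3 neighbours that passed without the replicate block.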

How the data were processed

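Gene expression was measured by microarray in 3 WT and 3 KrP samples, with 1 array each. Per the labels' protocols, 100 ng of total RNA was labelled with biotin. The authors deposited a table of log2 values for each array, and the submitters' processing notes name RMA and Partek without roles. Array medians lay between 6.34 and 6.43, so no normalisation was added. Arrays have no read depth, and their number limits the precision.

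The platform annotation gave 1 gene to 23521 of 34390 probe sets, several to 1814 and no gene to 9055. By gene ID 23328 were matched to RefSeq (GRCm38.p6). The probe set with the highest mean was kept for each gene, and each of the 4 genes had a single probe set. The members and lists were chosen with earlier results of these data known. KrP and WT were compared over 22180 genes with limma 3.58.1 in R 4.3.3 (lmFit, eBayes with a trend, Benjamini-Hochberg), after the code was tested on simulated data. Figures were drawn with matplotlib 3.10.9.

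The named genes are the 4 members, their closest relatives, up to 3 called genes per list and direction, the 5 most alike genes, rank neighbours and sort markers. Others, such as block-only calls, marker genes and chromosome neighbours, were chosen after their values were seen. Replicate numbers are shared by the groups. Deviations from the group means of same-numbered samples correlated across genes by 0.414, 0.350 and 0.120. Those of differently numbered samples ran from -0.385 to 0.067. Deviations from a group mean cancel within the group, so these correlations are not independent of each other. They were taken as a possible pairing, although no label states one. Counts with the replicate block ("blocked") stand beside the list and neighbour counts that it alters.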

Additional observations from a re-analysis of the deposited data

How the results depend on the processing

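The log2 fold changes of Moxd1, Slc14a1, Ptpn5 and Kif1a kept their direction under all 15 alternatives and moved by less than 1 SD between replicates. Leaving out 1 sample at a time gave 2.65 to 3.43 for Moxd1, 2.47 to 2.87 for Slc14a1, 2.06 to 2.28 for Ptpn5 and 1.78 to 2.72 for Kif1a. The number of genes called over the whole table was less stable. It was 483 as reported, 1851 with the replicate block (1182 higher and 669 lower), 6410 with array weights (3759 higher and 2651 lower), and from 85 to 1116 with 1 sample left out, where fewer samples enter the fit. With array weights the log2 fold changes were 3.25, 2.89, 2.13 and 2.38. The other alternatives (no trend, a robust prior, 25% or 50% of low genes left out, quantile normalisation, median centring, averaged probe sets) kept the count within 1.5 times, and the cause of the other shifts was not tested. Each of the 4 genes has a single probe set, so averaging could not alter its value. Genes near the background guide have compressed differences, which limits what can be said of the relatives that lie there.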
